A study of Homo sapiens with 6 samples.

Results

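The widest sites of the histone variant H2A.Z in HEK293T cells were examined here, taken from chromatin immunoprecipitation followed by sequencing (ChIP-seq) with the Abcam antibody. They are the 250 peaks of that list that span more than 2000 bp on chromosomes 1 to 22 and X, out of 44634 peaks, and they are called islands below. HEK293T is a human embryonic kidney line that carries the SV40 large T antigen, and all libraries came from the same unperturbed line after fixation in 1% formaldehyde for 10 min. The other lists were a second antibody to H2A.Z, from CST (52325 peaks), and antibodies to the variant H3.3 (72287), to acetylated lysine 16 of histone H4, H4K16ac (76748), and to dimethylated lysine 79 of histone H3, H3K79me2 (54476). The members were chosen by peak width, measured in 1 library per antibody, so no difference below has a replicate check or a p-value. Intervals in brackets are exact Clopper-Pearson 95% intervals that cover counting error within these libraries. How deeply the libraries were sequenced is unknown here.

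H2A.Z replaces the common histone H2A in nucleosomes that flank the starts of genes. It is put in place by the remodelling complexes built on SRCAP and EP400, and it is found both at active genes and at developmental genes held silent but ready for activation. H3.3 is the H3 variant laid down outside replication, H4K16ac is written by the acetyltransferase KAT8, and H3K79me2 is written by DOT1L as RNA polymerase II leaves the start and moves into the gene. A list shows where a signal stood above the caller's threshold in a population of cells. Cover of an island by several lists therefore does not show that the marks shared a nucleosome, an allele or a cell.

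CpG islands, stretches rich in the dinucleotide CG, are the usual promoter sequence under H2A.Z. The promoters of genes with a listed start inside the widest islands are printed first, to show the sequence on which the broadest H2A.Z stood, 1 start for each gene, the lowest coordinate of those near the peak; JADE2, at a wider island, has that start just outside it and is not printed. Each runs from 250 bases before the start to 50 bases from it, 5′ to 3′ in the gene's direction, with every CG in capitals. They come from RefSeq, build GRCh38.p14. WNT5A encodes a secreted ligand of noncanonical WNT signalling, TMEM132E a membrane protein, EPAS1 the hypoxia factor HIF-2α, LONRF3 a RING finger protein and GFRA1 the co-receptor for GDNF.
WNT5A: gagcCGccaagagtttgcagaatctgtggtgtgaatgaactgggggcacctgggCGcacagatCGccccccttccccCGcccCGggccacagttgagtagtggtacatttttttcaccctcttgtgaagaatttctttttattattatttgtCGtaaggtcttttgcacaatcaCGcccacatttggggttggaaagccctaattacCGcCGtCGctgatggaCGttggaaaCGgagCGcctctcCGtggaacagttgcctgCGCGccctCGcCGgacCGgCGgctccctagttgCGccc
RFPL2: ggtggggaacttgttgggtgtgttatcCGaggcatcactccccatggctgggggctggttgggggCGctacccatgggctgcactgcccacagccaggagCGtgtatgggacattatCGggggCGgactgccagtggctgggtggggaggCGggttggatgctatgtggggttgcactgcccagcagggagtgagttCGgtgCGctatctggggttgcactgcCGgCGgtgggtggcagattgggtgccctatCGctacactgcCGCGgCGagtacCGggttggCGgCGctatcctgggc
TMEM132E: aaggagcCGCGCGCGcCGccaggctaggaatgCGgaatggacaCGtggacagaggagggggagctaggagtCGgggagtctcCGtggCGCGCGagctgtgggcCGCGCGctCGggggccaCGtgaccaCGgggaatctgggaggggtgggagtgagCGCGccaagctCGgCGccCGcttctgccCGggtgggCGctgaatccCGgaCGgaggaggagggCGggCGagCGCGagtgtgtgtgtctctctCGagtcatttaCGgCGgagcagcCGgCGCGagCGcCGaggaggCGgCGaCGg
EPAS1: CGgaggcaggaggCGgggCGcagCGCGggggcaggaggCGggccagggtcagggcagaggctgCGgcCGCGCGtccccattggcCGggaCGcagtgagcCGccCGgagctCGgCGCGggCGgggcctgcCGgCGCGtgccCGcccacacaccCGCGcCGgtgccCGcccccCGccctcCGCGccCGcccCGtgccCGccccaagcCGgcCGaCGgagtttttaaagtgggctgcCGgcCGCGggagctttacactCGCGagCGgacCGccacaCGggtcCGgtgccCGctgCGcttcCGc
LONRF3: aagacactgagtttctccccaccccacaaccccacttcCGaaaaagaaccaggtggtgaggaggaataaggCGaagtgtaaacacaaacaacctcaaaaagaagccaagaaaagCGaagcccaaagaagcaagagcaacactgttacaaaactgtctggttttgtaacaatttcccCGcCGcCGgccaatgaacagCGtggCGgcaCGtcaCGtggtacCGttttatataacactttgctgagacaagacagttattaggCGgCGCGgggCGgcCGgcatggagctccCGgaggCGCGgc
GFRA1: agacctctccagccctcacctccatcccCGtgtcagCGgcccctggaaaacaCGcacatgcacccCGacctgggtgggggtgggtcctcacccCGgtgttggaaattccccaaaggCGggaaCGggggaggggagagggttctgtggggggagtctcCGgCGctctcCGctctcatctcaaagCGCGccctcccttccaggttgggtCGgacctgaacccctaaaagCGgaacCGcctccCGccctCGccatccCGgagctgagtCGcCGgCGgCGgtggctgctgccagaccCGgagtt
For comparison, the 2 strongest peaks of up to 500 bp that hold a listed start lay at ALDH9A1, an aldehyde dehydrogenase, and at DMAP1, a subunit shared by the SRCAP and EP400 complexes.
ALDH9A1: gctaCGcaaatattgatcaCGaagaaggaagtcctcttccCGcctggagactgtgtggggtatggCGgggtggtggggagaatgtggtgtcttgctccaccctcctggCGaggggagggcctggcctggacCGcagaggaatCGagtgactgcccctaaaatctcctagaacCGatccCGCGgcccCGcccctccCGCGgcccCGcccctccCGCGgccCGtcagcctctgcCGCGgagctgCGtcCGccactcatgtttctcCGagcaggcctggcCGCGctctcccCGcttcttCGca
DMAP1: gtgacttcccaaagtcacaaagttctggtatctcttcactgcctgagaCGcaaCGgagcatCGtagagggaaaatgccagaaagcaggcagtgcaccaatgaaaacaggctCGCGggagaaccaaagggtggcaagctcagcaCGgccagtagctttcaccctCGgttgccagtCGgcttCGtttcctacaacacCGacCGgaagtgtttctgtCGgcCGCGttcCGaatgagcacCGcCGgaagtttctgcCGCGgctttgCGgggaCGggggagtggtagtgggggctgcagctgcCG
The stretches lie at chr3:55487257-55487556 (minus strand, WNT5A), chr22:32203428-32203727 (minus, RFPL2), chr17:34579332-34579631 (plus, TMEM132E), chr2:46297157-46297456 (plus, EPAS1), chrX:118974364-118974663 (plus, LONRF3), chr10:116272176-116272475 (minus, GFRA1), chr1:165698513-165698812 (minus, ALDH9A1) and chr1:44213221-44213520 (plus, DMAP1).  The island promoters held 21 CG in WNT5A, 17 in RFPL2, 42 in TMEM132E, 47 in EPAS1, 19 in LONRF3 and 23 in GFRA1. ALDH9A1, under a peak of 482 bp, held 26, and DMAP1, under a peak of 468 bp, held 22. The median over all listed promoters was 23, so 3 of the 6 were below it, 1 equalled it and 2 were above it.

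Islands ranged from 2001 to 4851 bp, with a median of 2236 bp and quartiles of 2101 and 2457 bp. They made up 0.56% of the Abcam peaks and 2.56% of the bases in them. Their fold enrichment at the summit, the authors' ratio, had a median of 52 and ran from 11.9 to 125, and their −log10 q had a median of 181 and ran from 31.9 to 412. Over all Abcam peaks the median −log10 q was 20.8. Width and strength of these peaks come from the list that chose them and are given as a description. The threshold cuts a smooth tail. The 3 islands just inside it were at BHLHE40, a circadian helix-loop-helix repressor, and ABTB2, both 2001 bp wide, and at FUOM, 2005 bp wide. Just outside were a peak of 2000 bp at ZNF250 and LOC124902042 and a pair of peaks of 1996 bp on chromosomes 2 and 5, away from protein-coding starts. From 1900 to 2000 bp there were 89 peaks, and from 2000 to 2100 bp there were 61 islands.

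**Figure D1:**
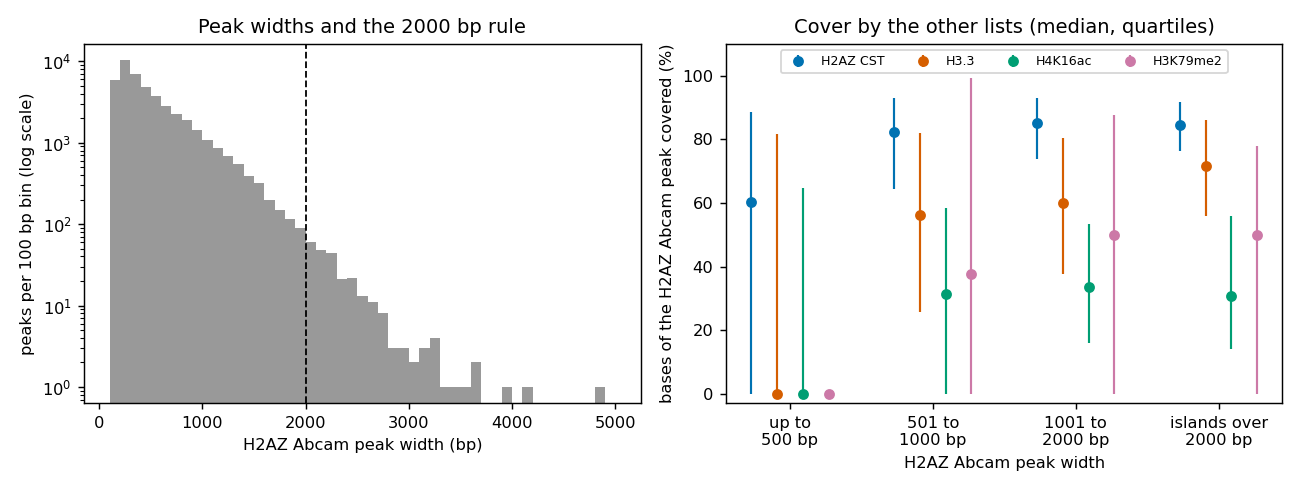
Left, widths of the 44634 H2AZ Abcam peaks in bins of 100 bp with a log count axis, with the 2000 bp rule as a dashed line. Right, percent of bases of an Abcam peak covered by each other list, as median (points) and quartiles (bars) in 4 classes of width. H2AZ CST cover was alike above 500 bp, with medians from 82.5% to 85%, and H3.3 cover was highest in the islands.

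The second antibody to H2A.Z marked every island, mostly in pieces. All 250 islands overlapped an H2AZ CST peak (98.5 to 100%), against 74.8% of all Abcam peaks. The median island was covered over 84.6% of its bases (quartiles 76.3 and 91.7%), close to the 85% of Abcam peaks of 1000 to 2000 bp. Here and below, a class of peak widths excludes its lower bound and includes its upper one. At least 50% of bases were covered in 248 islands, with 67.6% as the share over all Abcam peaks, and at least 90% in 83 (33.2%, 27.4 to 39.4%), with 27% over all Abcam peaks. A single CST peak lay over 47 islands, 2 CST peaks over 108 and 3 or more over 95. The widest CST peak in an island had a median width of 1328 bp. The CST list held 50 peaks above 2000 bp in all. Of these, 36 overlapped an island, which is 72% of the wide CST peaks and 14.4% of the islands. At the other 14, the widest Abcam peak measured between 763 and 1941 bp. In the CST list the strongest peak of an island had a median −log10 q of 49.4, above 90.2% of that list.

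GFRA1, which had a single CST peak, was among the most fully covered of the wide islands. Its island on chromosome 10, from 116271791 to 116274773, was covered over 96% by H2AZ CST, 40% by H3.3 and 56% by H4K16ac, and no H3K79me2 peak touched it. An island inside RGS20, a regulator of G protein signalling, on chromosome 8 from 53879535 to 53882627, was covered over 95.1% by H2AZ CST, 95.1% by H3.3, 38% by H4K16ac and 76.9% by H3K79me2. Another, on chromosome X from 40012226 to 40015419 at the noncoding gene LINC03053, had 91.5%, 95.8%, 69.2% and 82.6% in the same order. These 3 are the widest islands with at least 90% CST cover, and they carried the other marks to very different degrees.

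H3.3 was also present at every island. All 250 overlapped an H3.3 peak (98.5 to 100%), against 57.7% of all Abcam peaks and 93.4% (92.8 to 94.1%) of the 6152 narrower Abcam peaks that were at least as strong as the lower quartile of the islands. Wider peaks meet other peaks more easily, so cover per base and a window of fixed size were compared too. The median H3.3 cover was 71.7% in islands (quartiles 56 and 86%), 64% in the strong narrower peaks and 60.1% in peaks of 1000 to 2000 bp. In a 500 bp window at the Abcam summit, an H3.3 peak was met at 95.2% of islands (91.8 to 97.5%) and at 92% (91.2 to 92.6%) of the strong narrower peaks, and these intervals overlap. At least 50% of bases were covered in 203 islands, with 46.1% over all Abcam peaks. At least 90% were covered in 45 islands, or 18%, the same share as the 18% over all Abcam peaks. H3.3 usually formed several blocks, with 2 peaks in 91 islands and 3 or more in 117. With the 10000 strongest H3.3 peaks alone, the median cover was 37.1%.

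Islands with the fullest H3.3 cover lay at different kinds of gene. RUSC1 had an island on chromosome 1 from 155322681 to 155325612 that was covered over 100% by H3.3, 100% by H3K79me2, 93.3% by H2AZ CST and 49.3% by H4K16ac. An island over the noncoding genes LINC02983 and LINC03073 on chromosome 7, from 5426415 to 5429619, was 2581 bp from the nearest listed start or annotated end of TNRC18. It had the lowest Abcam −log10 q of the 250, 31.9, yet it was covered over 100% by H3.3 and by H3K79me2, 88.1% by H4K16ac and 62.5% by H2AZ CST. Its strongest H3K79me2 peak had a −log10 q of 678 in that list. At the other extreme, SOX9, a factor of cartilage and testis development, had H3.3 on 10.2% of its island, where H2AZ CST covered 97.1%.

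H4K16ac touched most islands and covered less than 50% of the bases in most of them. It overlapped 227 of 250 islands (90.8%, 86.5 to 94.1%), against 46.6% of all Abcam peaks and 81.6% (80.6 to 82.6%) of the strong narrower peaks. The median cover was 30.7% of bases (quartiles 14.1 and 55.9%), against 41% in the strong narrower peaks. In the 500 bp window at the summit the share was 77.6% (71.9 to 82.6%) in islands and 78.7% (77.6 to 79.7%) in the strong narrower peaks. At least 50% of bases were covered in 74 islands, or 29.6%, near the 30.4% over all Abcam peaks, and at least 90% in 3, or 1.2%, with 10.7% over all Abcam peaks. The peaks behind this cover were modest, with a median −log10 q of 10.3 for the strongest in each island. With only H4K16ac peaks of −log10 q of at least 10, the share of islands overlapped was 48.8% and the median cover was 0%, and with the 10000 strongest H4K16ac peaks the share was 30.0%.

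The 3 islands covered over at least 90% by H4K16ac stood at CRABP2, a carrier of retinoic acid, at NHLRC4, and at the noncoding gene LINC02875. The last island lay 1620 bp from the nearest listed start or annotated end of the T-box gene TBX2. At CRABP2 the cover was 91.2% for H4K16ac, 98.5% for H2AZ CST, 99.5% for H3.3 and 22.3% for H3K79me2. At NHLRC4 it was 98.6%, 76.2%, 100% and 17.3% in the same order, and at LINC02875 90.5%, 95.2%, 80.6% and 58.7%. The 23 islands without any H4K16ac peak were led by TMEM132E (3306 bp), ERBB4, the receptor for neuregulins (2706 bp), and a site inside the noncoding gene SOX1-OT (2681 bp), 8730 bp from SOX1. H3.3 covered 20.2%, 21.1% and 26.1% of these 3 islands. Of the 23, 13 had H3.3 cover below the lower quartile of all islands and 10 at or above it, with a median of 50.4%.

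H3K79me2 was the list most often missing from islands. It overlapped 181 of 250 (72.4%, 66.4 to 77.8%), against 35.2% of all Abcam peaks and 67.4% (66.2 to 68.6%) of the strong narrower peaks. The median cover was 49.9% (quartiles 0 and 77.8%) in islands and 64% in the strong narrower peaks. At least 50% of bases were covered in 125 islands, or 50%, with 31.8% over all Abcam peaks. At least 90% were covered in 37 islands, or 14.8% (10.6 to 19.8%), below the 22.9% over all Abcam peaks and the 31% (29.8 to 32.1%) of the strong narrower peaks, a measure on which a wide peak is harder to fill. In the window at the summit the share was 60% (53.6 to 66.1%) against 65.9% (64.7 to 67%), intervals that overlap. With the 10000 strongest H3K79me2 peaks the share of islands overlapped was 43.2% and the median cover 0%. GATA6, a zinc finger factor of endoderm and heart, had H3K79me2 on 98.7% of its island, and GATA2, a factor of blood stem cells, on 100%. THBD, the endothelial anticoagulant receptor thrombomodulin, had none on its 3473 bp.

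All 4 other lists met at 168 islands, or 67.2% (61 to 73%), against 18.6% of all Abcam peaks and 55.6% (54.3 to 56.8%) of the strong narrower peaks. A further 59 (23.6%) lacked only H3K79me2, against 13.8% of all Abcam peaks and 21.9% of the strong narrower peaks. Another 13 (5.2%) lacked only H4K16ac, against 8.06% and 9.27%. H2AZ CST and H3.3 with neither mark were at 10 islands (4%), against 8.81% and 6.71%. No island lacked H2AZ CST or H3.3. The genes of the 10 islands with neither mark were TMEM132E, HES7, a clock gene of the embryonic somites, EOMES, a T-box factor of the early embryo, ONECUT1, a factor of liver and pancreas, ABCA1, the exporter of cholesterol, ZMIZ1, and the membrane protease gene MMP16. The other 3 lay inside SOX1-OT, inside TCHH, which encodes a hair follicle protein, and inside LOC124902057. H3.3 cover of these islands ranged from 11.5% at LOC124902057 to 77.3% at HES7. The 13 islands that lacked only H4K16ac included NFKB2, a subunit of NF-kB, with H3.3 on 92.3%, and MYC, with H3.3 on 98.2% and H3K79me2 on 100% of an island 1511 bp from the nearer end of the gene. These genes were named because each group is small, after their values were seen.

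The other lists covered the outermost ends of the islands least. H2AZ CST covered 58.3% of bases in the outermost 5% of island length at either end and 87.4% in the innermost. H3.3 went from 55.2% to 68.3%, with its maximum of 73% between 10 and 15% of the length from an end. H4K16ac went from 20.7% to 36.1%, with its maximum of 41.4% between 30 and 35%, and H3K79me2 from 30.7% to 51.9%. In the first 500 bp outside the islands, H2AZ CST covered 11.2% of bases, H3.3 22.5%, H4K16ac 6.67% and H3K79me2 17.2%. H3.3 was the list that ran on furthest, with 8.69% still between 2 and 5 kb outside, against 3.13%, 5.33% and 5.77% for the other 3 in the same order.

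**Figure D2:**
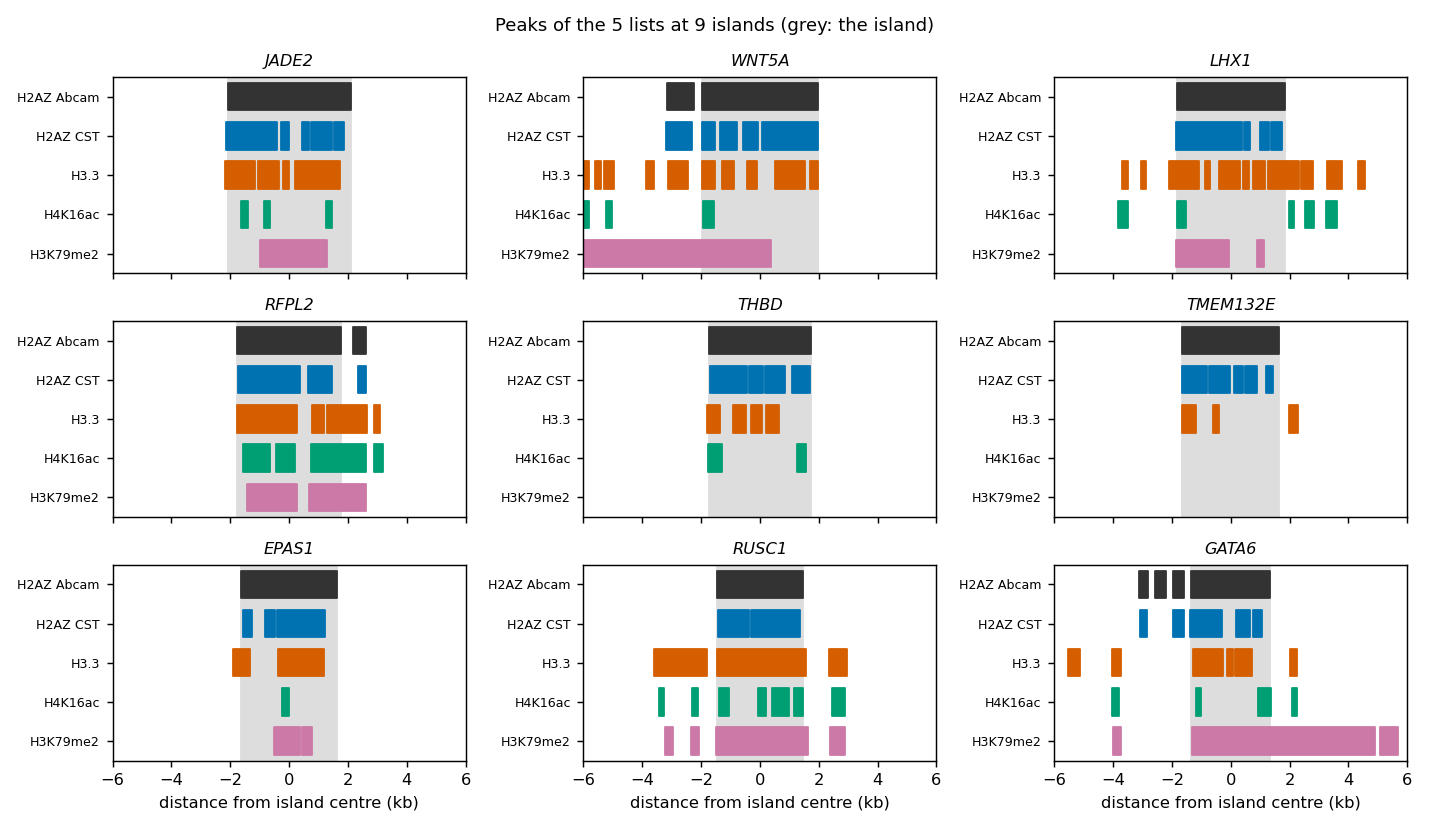
Peaks of the 5 lists as blocks, by distance in kb from the centre of the island, at 9 islands named by their gene; the grey band is the island. H2AZ CST filled most of each island in several blocks, while THBD and TMEM132E had no H3K79me2 and the H3K79me2 of GATA6 ran past the island.

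The widest islands with protein-coding genes stood at genes of varied function. JADE2, a scaffold of the HBO1 acetyltransferase complex, had 4181 bp on chromosome 5 from 134524102 to 134528282. H2AZ CST covered 77% of it, H3.3 80.6%, H4K16ac 15.1% and H3K79me2 54.3%. WNT5A had 3929 bp on chromosome 3 from 55486174 to 55490102, with 86.5%, 62%, 9.7% and 59.4% in the same order. Both had broad H3.3 and H3K79me2 cover and little H4K16ac. LHX1, a LIM homeobox factor of the early kidney, had 3677 bp on chromosome 17 from 36934404 to 36938080, with 84.9%, 77.9%, 8.6% and 55.4%. RFPL2 had 3516 bp on chromosome 22 from 32202662 to 32206177, with 83.2%, 82.6%, 74% and 78.9%. RFPL2 was thus the member of this group with wide H4K16ac. EPAS1 had 3244 bp on chromosome 2 from 46296630 to 46299873, with 70.6%, 57.3%, 6.5% and 37.3%. THBD on chromosome 20, from 23048157 to 23051629, had 86.8%, 47.3%, 21.1% and 0%, and TMEM132E on chromosome 17, from 34578962 to 34582267, had 75.6%, 20.2%, 0% and 0%. The remaining 3 of the 10 widest islands lay on chromosome 12, a pair of them outside all genes and the third over LOC124902912 and the pseudogene OVOS2P.

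The strongest islands were a different group, and 2 of them belonged to neuronal genes. GRM8, a metabotropic glutamate receptor, led with an Abcam −log10 q of 412 over 2408 bp. An island at the noncoding gene LOC105373289 followed at 397 and SYT1, the calcium sensor of synaptic vesicles, at 396. GFI1, a transcriptional repressor that acts in blood development, had 385 and SLC4A11, a membrane transporter, had 380. No H3K79me2 peak touched GRM8, LOC105373289 or SYT1, whereas GFI1 and SLC4A11 had it on 54.8% and 63.9% of the island. H2AZ CST covered between 70.7% at SLC4A11 and 91.3% at GRM8. H3.3 covered 41.3% at GRM8, 45.7% at SYT1 and 99.8% at LOC105373289.

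Islands lay mainly over gene starts and reached further into the gene than upstream of it, as narrower peaks did. A protein-coding gene start was within 1 kb of 197 islands, or 78.8% (73.2 to 83.7%), against 48.1% of all Abcam peaks and 78.3% (77.2 to 79.3%) of the strong narrower peaks. The RefSeq promoter table used here gives starts for 15812 of 19974 protein-coding genes, and both ends of the other 4162 were used. It gives none on chromosome 8, so genes there were matched by their annotated ends alone. Counting listed starts alone, the share was 62% (55.7 to 68%). A further 17 islands lay at starts of other genes, 25 inside genes and 11 outside all annotated genes. In all, 181 islands had 1 protein-coding gene, 15 had 2 and 1 had 4, which are the overlapping models GALNT4, POC1B, POC1B-DUSP6 and POC1B-GALNT4. The widest islands with 2 were at the potassium channel gene KCNK13 with LOC124903406 and at the aminopeptidase gene LNPEP with LOC124901030. Per chromosome, islands ranged from 0.15% of the Abcam peaks on chromosome 21, with 1 island, to 0.88% on chromosome 12. Exons, introns and untranslated regions were not assigned, since no full annotation was used here. At 84 islands, all starts within 1 kb were listed and on 1 strand, which gave a direction. There the island reached a median of 807 bp upstream (quartiles 549 and 1267) and 1430 bp downstream (1006 and 1757) of the most upstream start inside it. The downstream arm was the longer in 59 of 84 (70.2%, 59.3 to 79.7%), and the Abcam summit was downstream in 53 of 84 (63.1%, 51.9 to 73.4%). Taking the most upstream start lengthens the downstream arm where an island holds several starts. With a single listed start inside, a choice made after seeing the data, the downstream arm was the longer in 44 of 67 islands (65.7%, 53.1 to 76.8%), close to the 63.6% (60.8 to 66.4%) of peaks of 1000 to 2000 bp.

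The other lists covered more bases downstream than upstream of these 84 starts, as they did at narrower peaks. In the first kb downstream, H3K79me2 covered 61.4% of bases and H4K16ac 36.1%, against 21.6% and 20.6% in the first kb upstream. At starts in peaks of 500 to 1000 bp, H3K79me2 covered 63.9% downstream and 20% upstream, nearly the same. H2AZ CST covered 79.9% and 64.3% in the same segments, and H3.3 65.6% and 54.7%. H3.3 had the smallest difference between the 2 segments. Beyond the island the H3K79me2 cover dropped off early. Between 2 and 5 kb downstream it was 16.2% at islands, 21.8% at starts in peaks of 1000 to 2000 bp (n = 1413) and 29.5% at starts in peaks of 500 to 1000 bp (n = 2459). H3.3 went the other way, with 14.3%, 5.83% and 4.29% there. These classes differ in width by construction, and segments of 1 gene are not independent.

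**Figure D3:**
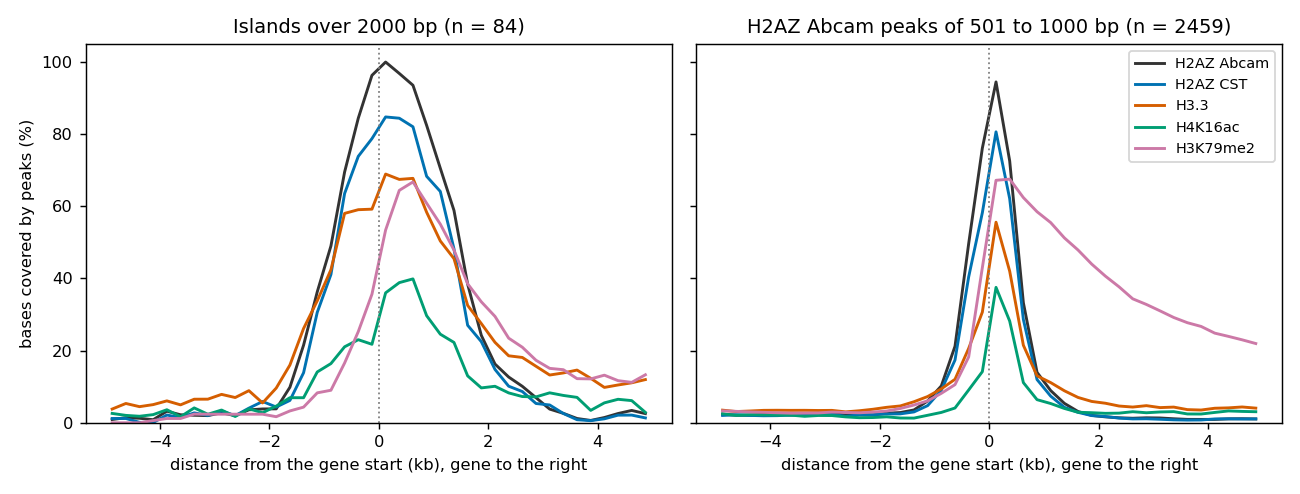
Percent of bases covered by peaks of each list in steps of 250 bp, by distance in kb from the gene start with the gene to the right, for 84 islands (left) and 2459 Abcam peaks of 500 to 1000 bp (right) with listed starts on 1 strand. H3K79me2 peaked between 500 and 750 bp inside the gene at islands, at 66.8%, and declined faster than in the right panel. The Abcam line follows from how the members were chosen.

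H3K79me2 peaks at genes with islands were shorter in the median than at other genes with H2A.Z. Among 158 genes with a listed start inside an island, 125 had an H3K79me2 peak within 1 kb (79.1%, 71.9 to 85.2%), close to the 82.2% (80.9 to 83.4%) at starts inside peaks of 500 to 1000 bp. The widest such peak had a median of 1549 bp (quartiles 966 and 2288), against 1870, 2198 and 2483 bp at starts in Abcam peaks of 1000 to 2000, 500 to 1000 and up to 500 bp. H3K79me2 peaks above 5 kb were found at 6.33% of the genes with islands (3.08 to 11.3%), 13.8% (12.4 to 15.2%) of those in the next class, 16% (14.8 to 17.1%) in the third and 16.3% (14.8 to 17.9%) in the last. The interval of the islands lay below the other 3.

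Within the islands at protein-coding starts, those without H3K79me2 had less of H3.3 and H4K16ac. The 40 islands without it had a median H3.3 cover of 53.8% (quartiles 41.2 and 74.7%), and the 157 with it 71.6% (59.4 and 86.1%). For H4K16ac the medians were 12.8% (8.7 and 28.3%) and 32.8% (18.6 and 53.2%). H2AZ CST was alike, at 83.3% and 84.5%, as were the median island widths, at 2270 and 2229 bp. The median Abcam −log10 q was higher without H3K79me2, at 202, than with it, at 178. The quartiles overlap for H3.3 and H4K16ac, so many single islands go against the medians. HES7 lacked H3K79me2 with H3.3 on 77.3%, and NKX2-2, a homeobox factor of the ventral neural tube, lacked it with H3.3 on 75%.

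Promoters under islands had the CG content of other H2A.Z promoters but fewer of the short motif of ETS factors. Over 166 protein-coding genes with an island and a listed start, the median was 27 CG in 300 bases (quartiles 21 and 32), against 28 for peaks of 1000 to 2000 bp, 28 for 500 to 1000 bp, 23 for up to 500 bp and 4 for genes with no Abcam peak. The median GC content was 68.3% at islands and 50.7% at genes with no peak. The letters CCGGAAG, the core bound by ETS factors, were found on either strand in 8 of the 166 (4.82%, 2.1 to 9.27%), against 14.3% of all listed promoters, 14.1% (12.9 to 15.4%) in the next class, 20.3% (19.3 to 21.4%) in the class of 500 to 1000 bp, and 3.85% (3.3 to 4.47%) at genes with no peak. DMAP1, printed above, has the ETS letters. The letters TATAAA were found in 17 (10.2%, 6.08 to 15.9%), LONRF3 among them, against 9.52% of all promoters and 21.1% (19.9 to 22.3%) at genes with no peak. The share was 4.7% (3.96 to 5.53%) in the class of 1000 to 2000 bp, 4.03% (3.53 to 4.59%) in the class of 500 to 1000 bp and 7.47% (6.53 to 8.5%) up to 500 bp. GGGCGG, bound by SP and KLF factors, was found in 122 (73.5%, 66.1 to 80%), against 59.9% of all promoters and 76.2% (75 to 77.3%) in the class of 500 to 1000 bp. CCAAT, bound by NFY, was found in 44 (26.5%, 20 to 33.9%), against 35.8% of all, and the palindromic core of NRF1 in 4 (2.41%, 0.66 to 6.05%), against 1.72% of all. Both strands were searched for each, and no motif contains another. A match is a description of letters in a window of 300 bases, not a binding site.

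**Figure D4:**
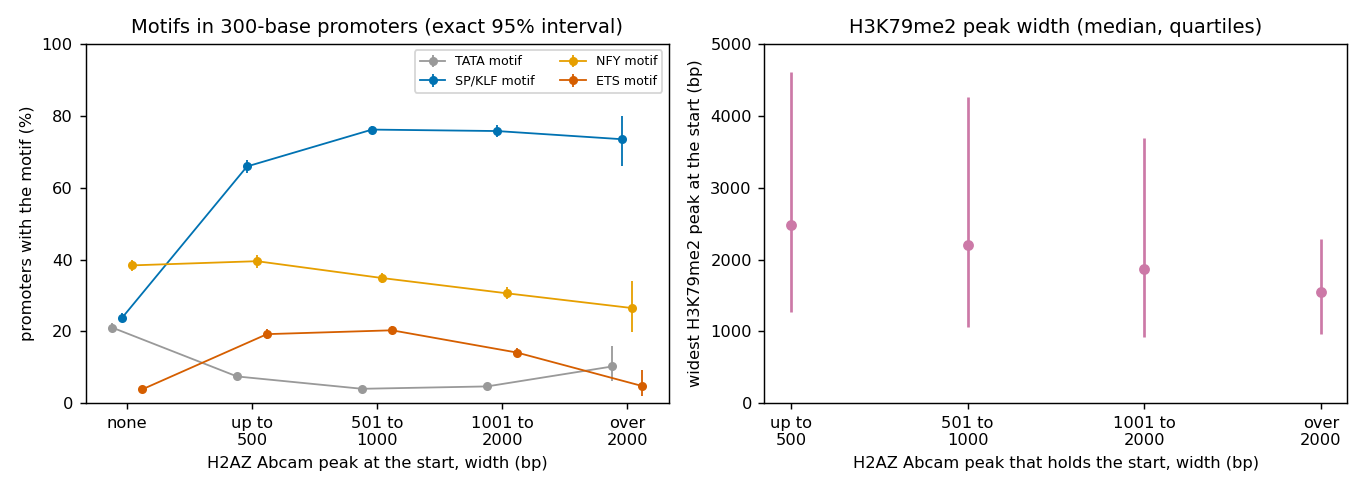
Left, percent of listed promoters with each motif by the width of the widest Abcam peak within 1 kb of the start, with exact 95% intervals; the ETS motif was in 20.3% of promoters at peaks of 500 to 1000 bp and 4.82% at islands. Right, median and quartiles of the widest H3K79me2 peak within 1 kb of the start, where one was present, by the width of the Abcam peak that holds the start; the median was 1549 bp at islands.

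Islands were found at developmental transcription factors more often than at protein-coding genes at large. An island lay within 1 kb of a start of 215 of 19974 protein-coding genes, or 1.08%, and of 1.52% of the 14112 with any Abcam peak there (70.7% of all genes had one). Of the 286 genes in 7 lists of developmental transcription factors, 21 had one (7.34%, 4.6 to 11%). Of the 352 genes in 5 lists of housekeeping genes, 1 had one (0.28%, 0.01 to 1.57%), an interval that includes the 1.08% of all genes. That was MRPS2, a protein of the mitochondrial ribosome, whose island also lay at PIERCE1. Most housekeeping genes did carry H2A.Z, with an Abcam peak at 321 of the 352, but it was short. The widest peak at a start had a median of 544 bp at marked housekeeping genes, 738 bp at all marked genes and 904 bp at marked transcription factor genes. Peaks above 1000 bp were at 10.2% of the housekeeping genes, 19.1% of all genes and 31.8% of the transcription factor genes. Widths come from the list that chose the islands, and members of a list are not replicates. With islands taken from 1500 bp upward, the shares were 12.6% of the transcription factor genes, 4.91% of all genes and 1.99% of the housekeeping genes.

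Counts per factor family were small, and the families' intervals overlap. GATA and T-box factors had islands at 4 of 23 genes, which were GATA6, GATA2, TBX6 and EOMES. An island inside GATA4, on chromosome 8 where no start was listed, lay 24935 bp from the nearer annotated end and was not counted. The basic helix-loop-helix factors had them at 6 of 51, led by HES7, the neurogenic factor NEUROG2 and NHLH2. SOX factors had 2 of 19, SOX9 and SOX21, forkhead factors 2 of 45, FOXF1, a factor of mesoderm, and FOXP1, and PAX factors 1 of 9, PAX2, which is needed for the kidney. Homeobox factors outside the HOX clusters had 6 of 100, led by LHX1, LHX4 and NKX2-2. HOX genes, which set position along the body axis, had none of 39, and the widest Abcam peak at any of their starts was 1161 bp. The interval ran from 4.95 to 38.8% for GATA and T-box factors and from 0 to 9.03% for HOX genes. Of the 21 genes, 17 have a listed start, and LHX1 is among those matched by an annotated end.

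The cover of these 21 islands varied widely. H2AZ CST covered a median of 87.3% (range 59.4 to 98.6%), H3.3 75% (10.2 to 98.7%), H4K16ac 29.4% (0 to 75.3%) and H3K79me2 46% (0 to 100%). H3K79me2 was absent from HES7, ATOH8, NKX2-2, EOMES and IRX6, and H4K16ac from HES7 and EOMES. GATA2, FOXF1 and FOXP1 were covered over 100% by H3K79me2, with −log10 q of 471, 376 and 527 in that list. PAX2 had H3.3 on 83.9% and H3K79me2 on 10.8%, and BHLHE40 had H3.3 on 98.7% and H3K79me2 on 78.5%. The same class of gene therefore included islands with nearly full H3K79me2 and islands with none.

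Kidney and signalling genes were checked as well, since the line comes from embryonic kidney. Of 12 nephron progenitor genes, 10 had an Abcam peak at a start (83.3%), against 70.7% of all protein-coding genes. An island lay at 2 of the 12, LHX1 and PAX2 (16.7%, 2.09 to 48.4%), against 1.08% of all genes. Of 11 genes of differentiated kidney, 4 had a peak and none had an island. Peaks show occupancy and not expression, so the label of the line was not tested by them. WNT ligands and frizzled receptors had islands at 2 of 29 genes, WNT5A and WNT11, the latter with H4K16ac on 59.2% and H3K79me2 on 73.1% of 2598 bp. None was found at 52 genes of BMP, GDF, FGF and hedgehog ligands. Cell cycle genes of the p53 and RB list had 3 of 30, which were CCNE2 and CCND1, cyclins that drive entry into S phase, and CDKN1A, the inhibitor p21. H3K79me2 covered 100% of the island at CCNE2, 83.3% at CCND1 and 99.8% at CDKN1A. The CCNE2 island also lay at an annotated end of NDUFAF6. Potassium channels had 3 of 95, KCNK13, KCNQ5 and KCNAB2, whose island also lay at NPHP4, and neuronal genes 1 of 28, SYT1. MYC and immediate early genes had 1 of 30, the nuclear receptor NR4A3. The island inside MYC, on chromosome 8 where no start was listed, lay 1511 bp from the nearer annotated end and was not counted. A peak above 1000 bp was at 19 of the 30 (63.3%), against 19.1% of all genes.

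Several clustered and housekeeping families had no island at a start. These were clustered protocadherins (0 of 53), zinc finger genes of chromosome 19 (0 of 251, with an Abcam peak at 203), replication-dependent histone genes (0 of 69), cytosolic ribosomal proteins (0 of 80, peak at 72), oxidative phosphorylation subunits (0 of 83), splicing factors (0 of 73), proteasome subunits (0 of 39), kinesins (0 of 39), Polycomb genes (0 of 32), keratins (0 of 50) and olfactory receptors (0 of 390, peak at 6). With 1.08% of genes as the background, a count of 0 in a list of this size is a small departure except for the longest lists. The machinery of H2A.Z itself had an Abcam peak at all 21 genes and an island at none. Its widest peaks were 1415 bp at ACTR6, a subunit of the SRCAP complex, 1299 bp at MEAF6 and 1096 bp at INO80, the remodeller that removes H2A.Z. SRCAP had 701 bp, EP400 609 bp, and the genes of H2A.Z, H2AZ1 and H2AZ2, had 460 and 264 bp.

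**Figure D5:**
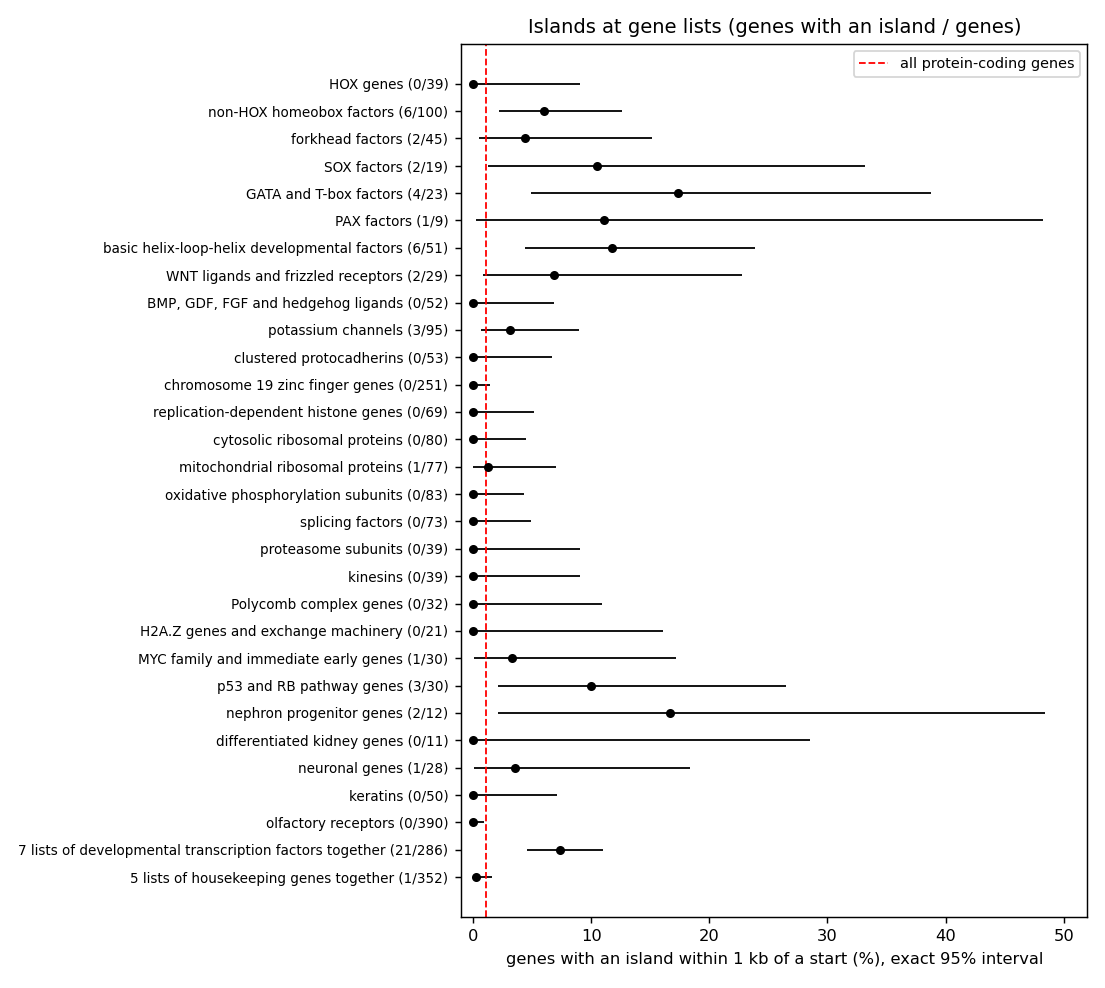
Percent of the genes of each list with an island within 1 kb of a start (points) and exact 95% intervals (bars), with the count beside each name; the dashed line is the 1.08% over all protein-coding genes. The 7 lists of developmental transcription factors together stood at 7.34% and the 5 housekeeping lists together at 0.28%.

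Some small genes lay largely inside an island. COMTD1, a methyltransferase-like gene of 2317 bp, had 87.3% of its length in its island, with H3K79me2 on 100% and H3.3 on 96.8% of the gene. LOC124901030 had 72.9%, NOG, which encodes the BMP antagonist noggin, 69.9%, NEUROG2 66.7% and TMEM121 61.7%. H3K79me2 covered 39.4% of NOG, 18.3% of NEUROG2 and 88.9% of TMEM121.

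Away from protein-coding starts, islands were few but included the widest. The 11 islands outside all annotated genes make 4.4% (2.22 to 7.74%), against 20.3% of all Abcam peaks and 6.81% of the strong narrower peaks. Of these, 3 lay in a row on chromosome 12, from 34334766 to 34338397, from 34343294 to 34348144, which is the widest of all, and from 34348204 to 34351383. The last pair is 59 bp apart. The nearest listed start or annotated end of a protein-coding gene, at ALG10, a glucosyltransferase, was between 306464 and 319902 bp away. H2AZ CST covered 61%, 74.3% and 73.9% of them, H3.3 18.2%, 76.9% and 84.9% and H4K16ac 12%, 44% and 14.3%, and H3K79me2 had no peak on any. How uniquely reads map to this stretch was not tested. Without these 3 islands the share at gene starts was 79.8% and the share with H3K79me2 73.3%. Another island outside genes lay 1857 bp from SALL1, a zinc finger factor of the kidney.

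The 25 islands inside genes and over 1 kb from any start used here were led by RGS20 and by F12, the coagulation factor XII gene. The F12 island ran on chromosome 5 from 177402179 to 177405123. It was covered over 99.6% by H2AZ CST, 100% by H3.3, 67.7% by H4K16ac and 37.9% by H3K79me2. The third was the site in SOX1-OT. Genes of chromosome 8 had no listed start, so starts inside RGS20, GATA4, PLEC and MYC, all in this group, could be missed. H3K79me2 overlapped 12 of the 25 (48%), against 157 of the 197 islands at protein-coding starts (79.7%). It overlapped 8 of the 17 at starts of other genes (47.1%) and 4 of the 11 outside genes (36.4%). For peaks of 1000 to 2000 bp, the H3K79me2 shares were 76.1% at protein-coding starts and 37% inside genes. They were 34.8% at starts of other genes and 15% outside genes, so the same order held there. Over all Abcam peaks they were 62.2% at protein-coding starts, 13.3% inside genes, 18.6% at starts of other genes and 3.4% outside genes. H4K16ac overlapped 21 of the 25 (84%), the same share as the 84% of peaks of 1000 to 2000 bp inside genes. Over all Abcam peaks inside genes its share was 49.4%.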

How the data were processed

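Peaks of 5 ChIP-seq libraries were analysed, 1 per antibody; the input library was not used here. Library preparation, per the labels' protocols, took 10 ng of immunoprecipitated DNA through 13 cycles of PCR, followed by a cut at 250 to 450 bp. The submitters' processing notes list MACS2 2.1.0 beside Bowtie 1.1.2, Trimmomatic 0.33, bcl2fastq 2.17 and build hg38. Settings, duplicates, multiply matching reads and any use of the input are not stated by these sources. Each list belongs to 1 library, per the labels. The deposited lists give each peak's position, the authors' fold enrichment (a linear ratio), the authors' −log10 p-value, the authors' −log10 q-value, whose smallest value was 2.01 in the Abcam list, and the authors' integer score, which was not used. A peak caller splits or joins blocks by its settings and depth, so width depends on both. The −log10 values rank peaks within a list.

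Overlap was at least 1 bp, and cover is the percent of bases of an Abcam peak inside peaks of another list. Strong narrower peaks are those of up to 2000 bp with a −log10 q of at least 135, the lower quartile of the islands. Genes and promoters came from RefSeq, assembly GRCh38.p14, which holds the same chromosome sequences as hg38. Chromosomes 1 to 22 and X were used. Python 3.11.15, pandas 2.3.3 and scipy 1.17.1 were used, and the interval code was tested on simulated regions, where 0 of 2000 had a wrong cover. Sequence and motif counts used 1 promoter for each gene, and all listed starts were used to place genes and islands. The members and the 28 gene lists were chosen with earlier results of these data known. Named genes follow a rule: the 10 widest and 5 strongest islands, the 3 widest without and the 3 widest covered over at least 90% by each list, up to 3 members of each gene list, the 3 widest outside genes and inside genes, the 3 with most genes, the 5 genes with the largest share in islands, those at the threshold, and the H2A.Z machinery. Other genes were named after their values were seen. Alternatives changed the width rule, the threshold of the lists, the overlap, the antibody, the joining of peaks and the distance to starts.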

Additional observations from a re-analysis of the deposited data

How the results depend on the processing

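Of 114 values recomputed under 13 alternatives, 52 stayed within the counting interval of the reported value (for the number of islands, within 1.5 times) and 62 moved. H2AZ CST overlap was 79.6% with the 10000 strongest peaks of each list and at least 99% under all the other alternatives run. The alternatives with either end of every gene, without the 3 islands of chromosome 12, and all those on gene lists were chosen after seeing the data.

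The number of islands was 1115 above 1500 bp, 17 above 3000 bp, 50 from the CST list and 1323 with Abcam peaks joined over gaps of up to 500 bp. Above 1500 bp the median H3.3 cover was 67%, and an island lay at 4.91% of all genes, 12.6% of transcription factor genes and 1.99% of housekeeping genes. Above 3000 bp the median cover was 82.8% by H2AZ CST, 77.9% by H3.3 and 21.1% by H4K16ac, the shares overlapped were 94.1% by H4K16ac and 64.7% by H3K79me2, 52.9% of islands lay at starts, and the gene shares were 0.0451%, 0.35% and 0%. With CST peaks as islands, the median cover was 98.9% by the Abcam list, 78.1% by H3.3, 44.3% by H4K16ac and 32.3% by H3K79me2, which overlapped 62%, 66% lay at starts, and the gene shares were 0.175%, 1.4% and 0%. With joined peaks the median cover was 68% by H2AZ CST, 59.5% by H3.3 and 25% by H4K16ac, and the gene shares were 5.96%, 23.1% and 2.27%.

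With covering peaks of −log10 q of at least 5, H4K16ac overlapped 80.8% of islands with a median cover of 27.6%. At 10, the median cover was 82.8% by H2AZ CST, 64.3% by H3.3 and 0% by H4K16ac, and the shares overlapped were 96.4% by H3.3, 48.8% by H4K16ac and 64% by H3K79me2. With the 10000 strongest peaks the shares were 68.4% by H3.3, 30.0% by H4K16ac and 43.2% by H3K79me2, and the median cover was 58.1% by H2AZ CST, 37.1% by H3.3, 0% by H4K16ac and 0% by H3K79me2. These settings keep fewer peaks by construction. With at least 50% covered the shares were 81.2% by H3.3, 29.6% by H4K16ac and 50% by H3K79me2. In the window of 500 bp at the summit they were 95.2%, 77.6% and 60%, the median cover was 100% by H2AZ CST, 88.7% by H3.3, 56.9% by H4K16ac and 64.4% by H3K79me2, and 70.4% lay at starts. Starts within 5 kb were found for 86% of islands, with an island at 1.26% of all genes, and starts inside the island for 72.8%.

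The order of transcription factor, all and housekeeping genes was the same in each of these alternatives on gene lists. Few genes were left above 3000 bp and from the CST list, and there the intervals of transcription factor and housekeeping genes overlapped. They were 0.00885 to 1.93% and 0 to 1.04% above 3000 bp, and 0.382 to 3.54% and 0 to 1.04% from the CST list. No paired analysis was possible because each antibody had 1 library. Read depth, which bears on how wide a peak is called, is unknown here.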
